A study of Mus musculus with 2 samples.

Results

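Open chromatin at the mouse potassium channel genes was read from DNase-seq of the left cerebral cortex. The members were all protein-coding genes of GENCODE release M21 with a Kcn symbol, 94 of 21938 protein-coding genes, chosen by name and not by any measured value. The tissue came from male B6CASTF1/J mice, a first-generation cross between the C57BL/6J and CAST/EiJ strains, at 2 months of age, and there was 1 group with 2 biological replicates and no treatment. The labels number the replicates 1 and 2 and give each its own numbered male source. DNase I cuts exposed DNA more readily than DNA wrapped in nucleosomes, so a peak marks a stretch of open chromatin and a footprint marks a short protected stretch within it. Bulk cortex pools neurons, glia and vessel cells, so fewer cells with an open site and less opening per cell cannot be told apart.

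Potassium channels set the resting potential of neurons and glia and end the action potential. A channel is built from pore-forming subunits, and auxiliary subunits change its gating or its delivery to the membrane. Voltage-gated subunits (Kcna to Kcnd, Kcnf to Kcnh, Kcnq, Kcns and Kcnv) open on depolarisation, inward rectifiers (Kcnj) pass current best near rest, and two-pore-domain channels (Kcnk) carry leak current. Channels of the Kcnma, Kcnn, Kcnt and Kcnu genes open with intracellular calcium, sodium or, in sperm, alkaline pH. Kcnab, Kcne, Kcnip and Kcnmb genes encode auxiliary subunits, and Kcnrg, a regulator of channel assembly, was counted with them.

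Replicate 1 had 63928 peaks with a median height of 0.915, and replicate 2 had 76440 peaks with a median height of 0.689. Heights are the authors' values. Neither their scaling nor the sequencing depth is stated in the labels or files used. Of the cell type marker genes read in the same way, 3 of 5 for cortical excitatory neurons, 3 of 3 for astrocytes and 3 of 3 for oligodendrocytes had a promoter peak in both replicates. The other 2 excitatory markers and 3 of 3 inhibitory neuron markers, Gad1, Gad2 and Slc32a1, had one in replicate 1 alone. None of the 3 markers each for microglia, endothelium, mural cells, choroid plexus and other organs had a promoter peak in either replicate, and 1 of 3 cerebellar markers, Cbln3, had one in both.

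The tallest shared distal regions in the loci of the members show what the footprints look like in sequence. A distal region lay more than 2000 bp from every annotated transcription start site (TSS), and a shared one was covered by overlapping peaks of both replicates. The 2 tallest of these regions in member loci and the tallest in Kcnma1, the gene with most of them, are given 5′ to 3′ on the strand of the gene, in GRCm38.p6 (mm10) coordinates. Capitals mark bases within footprints of both replicates. The Kcnn1 sequence is the central 300 bp of its region.
Kcnn1 (chr8:70865591-70865890, minus strand): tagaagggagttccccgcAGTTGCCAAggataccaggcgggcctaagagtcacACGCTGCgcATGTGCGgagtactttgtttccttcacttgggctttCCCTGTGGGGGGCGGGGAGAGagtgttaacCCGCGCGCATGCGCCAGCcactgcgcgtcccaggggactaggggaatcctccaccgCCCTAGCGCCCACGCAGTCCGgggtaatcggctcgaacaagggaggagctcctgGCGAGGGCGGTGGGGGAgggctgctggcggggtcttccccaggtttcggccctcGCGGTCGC
Kcna6 (chr6:126702221-126702500, minus strand): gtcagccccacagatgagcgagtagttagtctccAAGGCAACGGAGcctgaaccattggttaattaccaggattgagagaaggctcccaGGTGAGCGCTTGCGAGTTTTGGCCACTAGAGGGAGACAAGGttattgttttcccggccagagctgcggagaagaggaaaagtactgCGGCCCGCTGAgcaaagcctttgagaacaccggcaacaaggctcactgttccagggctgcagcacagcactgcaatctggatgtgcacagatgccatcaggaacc
Kcnma1 (chr14:24008381-24008580, minus strand): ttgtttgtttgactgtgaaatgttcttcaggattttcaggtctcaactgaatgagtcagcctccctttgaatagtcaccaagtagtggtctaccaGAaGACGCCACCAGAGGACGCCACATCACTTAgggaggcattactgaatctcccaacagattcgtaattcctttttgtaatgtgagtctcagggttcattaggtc
The Kcnn1 region held 108 footprint bases within these 300, the Kcna6 region 64 of 280 and the Kcnma1 region 31 of 200.

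Promoter sequences of 3 accessible members from 3 classes of channel are given next, each the 250 bp before the RefSeq start, on the gene's strand and with the same use of capitals. They were chosen among the members with the tallest promoter peaks in their class, where this stretch overlaps no annotated exon.
Kcnj2 (chr11:111065914-111066163, plus strand): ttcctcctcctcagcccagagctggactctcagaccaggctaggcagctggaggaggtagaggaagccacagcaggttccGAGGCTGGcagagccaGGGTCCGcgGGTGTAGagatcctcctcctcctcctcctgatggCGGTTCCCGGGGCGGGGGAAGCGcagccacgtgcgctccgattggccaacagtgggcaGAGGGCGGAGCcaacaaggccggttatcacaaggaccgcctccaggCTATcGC
Kcnn3 (chr3:89519914-89520163, plus strand): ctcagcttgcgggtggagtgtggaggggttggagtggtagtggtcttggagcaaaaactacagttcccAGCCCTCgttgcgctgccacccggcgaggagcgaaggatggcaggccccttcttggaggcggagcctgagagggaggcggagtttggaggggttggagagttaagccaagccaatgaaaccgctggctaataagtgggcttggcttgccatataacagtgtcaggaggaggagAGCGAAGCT
Kcnk13 (chr12:99964249-99964498, plus strand): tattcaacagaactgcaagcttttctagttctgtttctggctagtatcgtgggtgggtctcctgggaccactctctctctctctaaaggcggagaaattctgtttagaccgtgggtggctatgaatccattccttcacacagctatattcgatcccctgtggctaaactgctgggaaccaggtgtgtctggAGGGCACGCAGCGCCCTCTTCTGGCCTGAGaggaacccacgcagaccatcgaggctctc
The 250 bp before the Kcnj2 start held 62 footprint bases, those of Kcnn3 16 and those of Kcnk13 30. Promoter entries for 69 of the 94 members were found in the RefSeq table used.

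A gene counted as accessible at its promoter when peaks of replicate 1 and of replicate 2 lay within 500 bp of any of its annotated TSSs. This held for 56 of 94 Kcn genes (59.6%), beside 56.2% of all protein-coding genes, so the share as a whole was close to the background. It lay below the background where peaks had to reach the median height, with 41 members (43.6%) beside 50.3%, and at the gene start alone, with 46 members (48.9%) beside 50.4%. The members stood further from the background in the split calls. A promoter peak in replicate 1 alone was found at 14 members (14.9%), beside 5.37% of all genes, and in replicate 2 alone at 2 members (2.13%), beside 0.934%. No promoter peak in either replicate was found at 22 members (23.4%), beside 37.5% of all genes. No p-value is given for these shares, since genes are not replicates and there was no second group. With the authors' longer, less strict peak lists 68 members (72.3%) were accessible, beside 61% of all genes. Bases with a false discovery rate (FDR) under 0.05 in the authors' cut-rate track lay at a promoter in both replicates at 70 members (74.5%), beside 61.9%.

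Member promoters had lower peaks in the median than accessible genes in general. Among accessible genes the median height of the tallest promoter peak was 1.74 for Kcn genes and 3.73 for all protein-coding genes in replicate 1, and 0.952 for Kcn genes and 2.11 for all in replicate 2. The heights of accessible members ran from 0.384 to 10.4 in replicate 1 and from 0.290 to 7.59 in replicate 2. In 51 of 56 accessible members the height in replicate 2 was below that in replicate 1, as in 11724 of 12324 accessible genes overall. The median log2 ratio, replicate 2 over replicate 1, was -0.81 for members and -0.77 for all accessible genes. The peak centre lay upstream of the nearest TSS in 46 of 56 members in replicate 1 and 45 of 56 in replicate 2, and the median peak was 240 bp wide in replicate 1 and 214 bp in replicate 2. A footprint lay in 54 of the 56 promoter peaks in replicate 1 and in 53 in replicate 2. Position, width and footprints of promoter peaks were not counted over all genes, so these values have no background beside them.

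**Figure D1:**
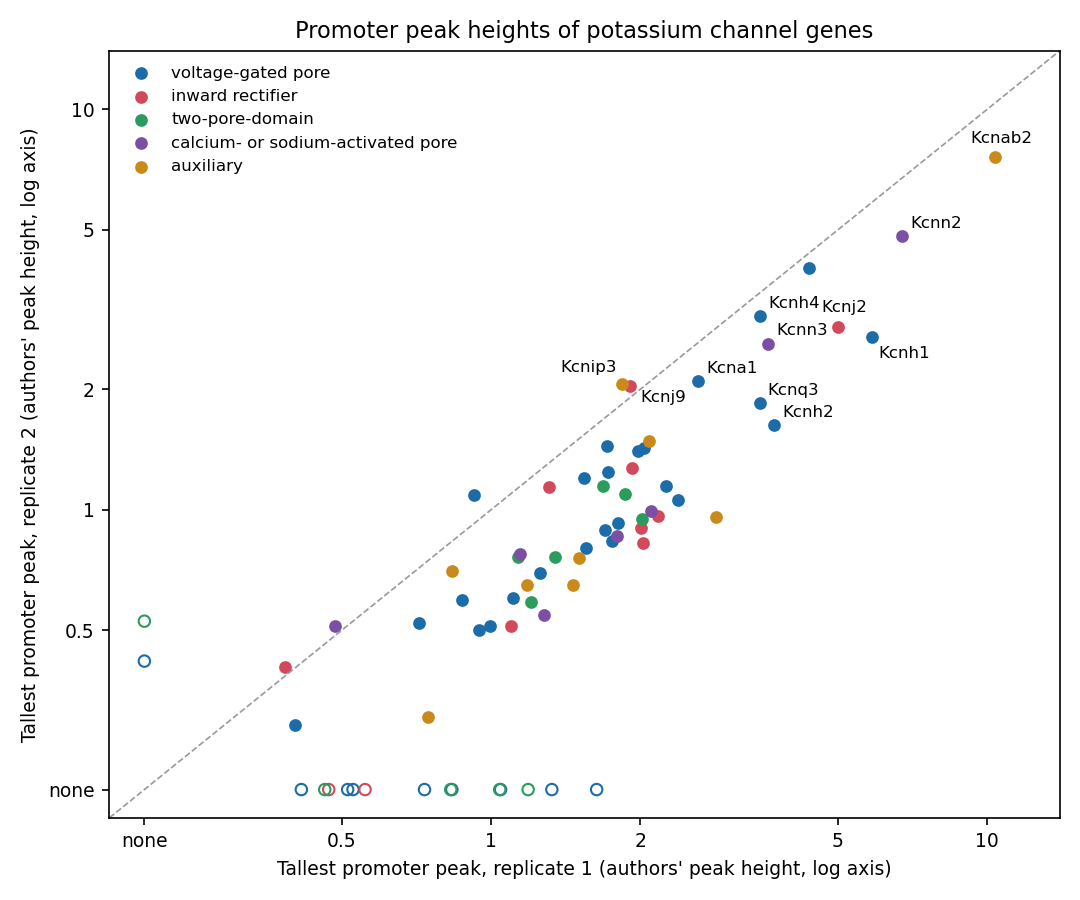
Height of the tallest promoter peak of each potassium channel gene in replicate 1 (x axis) and replicate 2 (y axis), the authors' peak heights on log axes, with filled points for genes with a peak in both replicates, open points at "none" for genes with a peak in 1 replicate alone, and a dashed line of equal height. Of the 56 genes with both peaks, 51 lie below the line, and Kcnab2 is at the top with 10.4 in replicate 1 and 7.59 in replicate 2.

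Voltage-gated pore genes were accessible in 25 of 40 cases (62.5%), beside 56.2% of all genes. Another 8 had a peak in replicate 1 alone, 1 had one in replicate 2 alone and 6 had no peak. The Kcnh genes, which encode the ether-a-go-go related channels, were accessible in 8 of 8 cases. Kcnd (3 of 3) and Kcnb (2 of 2), the genes of the A-type current and of the somatodendritic delayed rectifier, were accessible throughout. Kcnf1, which encodes a silent subunit, was also accessible. The Kcng genes, whose products are silent subunits that open only when assembled with Kcnb subunits, were accessible in 0 of 4 cases. Their peaks were seen in 1 replicate only, Kcng1, Kcng2 and Kcng3 in replicate 1 and Kcng4 in replicate 2. Between these lay Kcna with 4 of 8, Kcnc with 2 of 4, Kcnq with 3 of 5, Kcns with 1 of 3 and Kcnv with 1 of 2.

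Kcnh1 (chr1:192190774-192510159), an ether-a-go-go channel, had 5.86 in replicate 1 and 2.70 in replicate 2. Kcnh4 (chr11:100740376-100759942), of the ether-a-go-go-like branch, had 3.48 in replicate 1 and 3.05 in replicate 2. Kcnq3 (chr15:65986387-66286642) encodes a subunit of the M-current, a slow brake on repeated firing. Its promoter height was 3.48 in replicate 1 and 1.84 in replicate 2. Kcnh8 had the lowest accessible promoter of the class, with 0.402 in replicate 1 and 0.290 in replicate 2.

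Inward rectifier genes were accessible in 9 of 15 cases (60%), beside 56.2% of all genes, with 2 in replicate 1 alone and 4 with no peak. Kcnj2 (chr11:111066164-111076821), a strong inward rectifier that holds the resting potential of many excitable and vascular cells, stood above the others of this class with 5.01 in replicate 1 and 2.86 in replicate 2. Kcnj9 (chr1:172320501-172329318), a subunit of G protein-gated channels, had 1.90 in replicate 1 and 2.04 in replicate 2. It was one of the 5 accessible members that were not lower in replicate 2. Kcnj10 (chr1:172341210-172374085) encodes the main potassium channel of astrocytes, which clears potassium from the extracellular space. Its height was 1.92 in replicate 1 and 1.27 in replicate 2. Kcnj6 (chr16:94748636-94997701), another G protein-gated subunit, had 2.17 in replicate 1 and 0.966 in replicate 2. Kcnj16, the partner of Kcnj10 in astrocytes, had the lowest accessible promoter of the class, 0.384 in replicate 1 and 0.405 in replicate 2. That promoter lay 29.5 kb into the gene, and the gene start had no peak.

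Two-pore-domain genes were accessible in 6 of 14 cases, with 4 in replicate 1 alone, 1 in replicate 2 alone and 3 with no peak. Kcnk13 (chr12:99964499-100062682), a leak channel known from microglia, had 1.86 in replicate 1 and 1.09 in replicate 2, although none of the 3 microglia markers read had a promoter peak. Kcnk12 (chr17:87745801-87797994), its close relative, had 1.68 in replicate 1 and 1.15 in replicate 2. Kcnk1 (chr8:125995170-126030685), a weakly rectifying leak channel, had 2.01 in replicate 1 and 0.945 in replicate 2. These 3 promoters changed order between the replicates. Kcnk10 (chr12:98429437-98578310), a mechano- and lipid-sensitive leak channel, had 1.35 in replicate 1 and 0.763 in replicate 2 at a promoter 3.18 kb inside the gene. Its promoter at the gene start was open too, with 0.60 in replicate 1 and 0.62 in replicate 2. The count of accessible genes in this class depended on the peak list. It was 42.9% beside 56.2% of all genes with the stricter lists and 11 of 14 (78.6%) beside 61% with the longer lists, so it turned from below the background to above it.

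Calcium- or sodium-activated pore genes were accessible in 7 of 8 cases (87.5%), beside 56.2% of all genes. The exception was Kcnn4, known from blood and epithelial cells, with no peak. Kcnn2, a small-conductance calcium-activated channel of the afterhyperpolarisation, had 6.73 in replicate 1 and 4.81 in replicate 2 at a promoter 290.6 kb into the gene. At the gene start it had 2.39 in replicate 1 and 1.61 in replicate 2. Kcnn3 (chr3:89520164-89675132), of the same family, had 3.62 in replicate 1 and 2.60 in replicate 2. Kcnn1 (chr8:70842049-70863258), the remaining member of the family with a neuronal role, had 2.10 in replicate 1 and 0.993 in replicate 2. Its open promoter lay 6.2 kb into the gene, and the gene start had no peak. The order Kcnn2, Kcnn3, Kcnn1 was the same in both replicates. Kcnma1 (chr14:23289431-24014491) encodes the large-conductance calcium- and voltage-activated channel. Its promoter height was 1.80 in replicate 1 and 0.858 in replicate 2. That promoter joins nearby starts from 9.63 to 10.6 kb inside the first annotated start and serves 22 annotated transcripts. None of the other 6 Kcnma1 promoters was open. Kcnu1, the sperm channel, had a low promoter peak with 0.484 in replicate 1 and 0.513 in replicate 2. It lay at a start 62.1 kb into the gene, and the gene start had no peak.

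Auxiliary subunit genes were accessible in 9 of 17 cases (52.9%), beside 56.2% of all genes. The other 8 had no peak in either replicate, so none had a peak in 1 replicate alone. The subfamilies divided: Kcnip with 4 of 4 and Kcnab with 3 of 3 were accessible, while Kcnrg had no peak, Kcne had 1 of 5 (Kcne3) and Kcnmb 1 of 4 (Kcnmb4, the brain beta subunit of the Kcnma1 channel). Kcnab2 (chr4:152390742-152477871), the cytoplasmic beta subunit of Kcna channels, had the tallest promoter of all members, 10.4 in replicate 1 and 7.59 in replicate 2. This peak also lay within 500 bp of a start of Nphp4. A second Kcnab2 promoter, 29.0 kb into the gene, was open on its own with 0.721 in replicate 1 and 0.628 in replicate 2. Kcnip3 (chr2:127456498-127522094), a calcium-binding partner of Kcnd channels, had 1.84 in replicate 1 and 2.06 in replicate 2. Kcnab3 (chr11:69326258-69333042), another beta subunit, had 2.09 in replicate 1 and 1.49 in replicate 2. Kcnip4 (chr5:48389502-49524907), a second calcium-binding partner, had 2.84 in replicate 1 and 0.959 in replicate 2, a wider gap than at most members. Kcnip1 was accessible only because different starts were counted, one 149.6 kb into the gene with 0.747 in replicate 1 and one at the gene start with 0.304 in replicate 2. Where peaks of both replicates had to overlap, 55 members were accessible (58.5%), beside 55.8% of all genes.

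**Figure D2:**
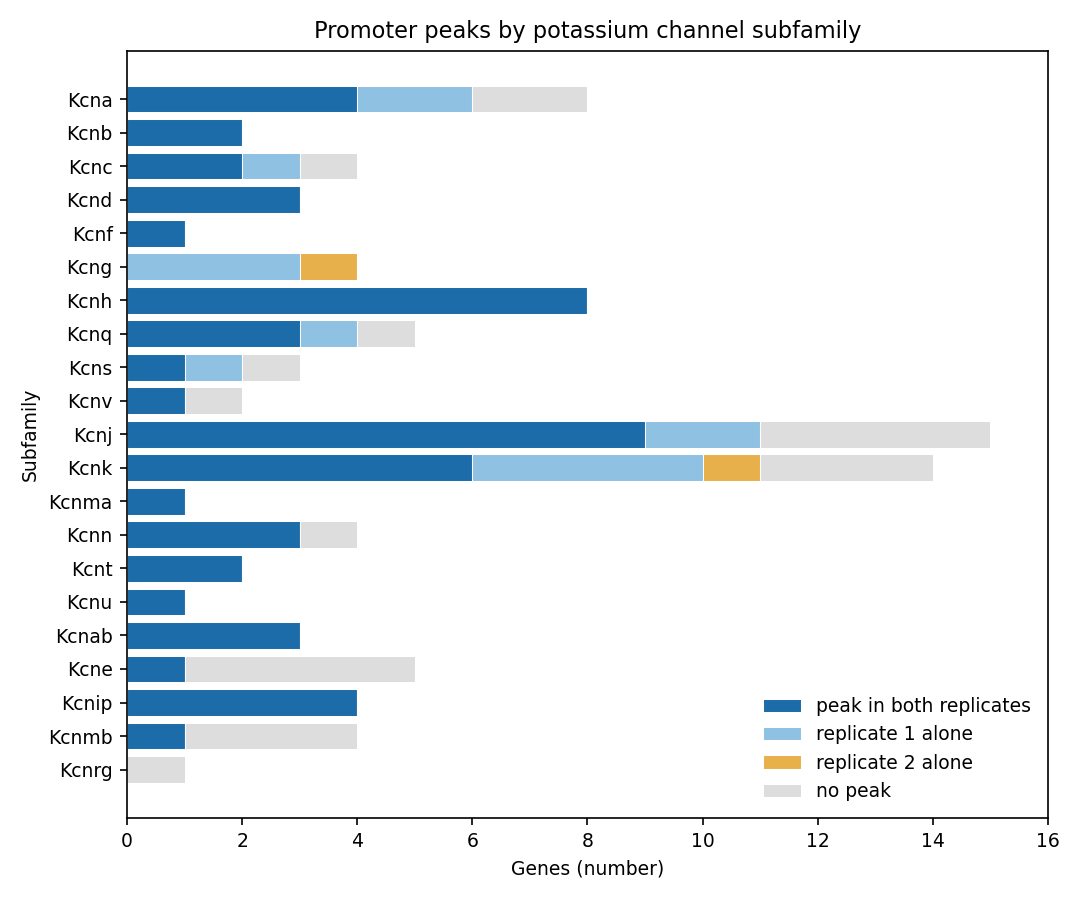
Number of genes (x axis) in each potassium channel subfamily (y axis) with a promoter peak in both replicates, in replicate 1 alone, in replicate 2 alone or in neither. All 8 Kcnh genes and 4 Kcnip genes have peaks in both replicates, and none of the 4 Kcng genes does.

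Few member promoters were shared with a neighbour. Leaving out peaks that also lay within 500 bp of another protein-coding gene's TSS kept 56 members accessible (59.6%), beside 46.3% of all genes, and 17.6% of all accessible genes lost the call in this way. At least 2 separate promoters were annotated for 55 members, and 63 of 199 member promoters were open in both replicates. Separate promoters were not counted in this way over all genes. In 7 members 2 or more promoters were open, among them Kcna1, Kcnab2, Kcnk10, Kcnn2 and Kcnt1, and Kcnc1 had 3. In 9 accessible members the promoter at the gene start, with nearby starts joined, was not open in both replicates.

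A promoter peak in replicate 1 alone was listed for 14 members. Among them were Kcna2, Kcna3, Kcnc2, Kcng1, Kcng2, Kcng3, Kcnj5, Kcnj8, Kcnk3, Kcnk4, Kcnk6, Kcnk15 and Kcns3. Their replicate 1 heights ran from 0.414 (Kcnc2) to 1.63 (Kcna3), with a median of 0.781, and so lay below the median of the accessible members. Kcna2, a dendrotoxin-sensitive channel of axons, had 1.33 in replicate 1 and no listed peak in replicate 2. Low-FDR bases lay at a promoter in replicate 2 in 10 of the 14 (71.4%), beside 68.5% of all genes with a replicate 1 peak alone. With the longer lists 9 of the 14 were accessible, a count that was not made over all such genes and so has no background. Kcnk16 had 0.527 and Kcng4 0.419 in replicate 2 alone. The depth of the libraries is unknown, so a missing peak here is one not listed at the authors' threshold.

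No promoter peak was listed for Kcna5, Kcna10, Kcnc4, Kcne1, Kcne1l, Kcne2, Kcne4, Kcnj1, Kcnj13, Kcnj14, Kcnj15, Kcnk7, Kcnk9, Kcnk18, Kcnmb1, Kcnmb2, Kcnmb3, Kcnn4, Kcnq1, Kcnrg, Kcns1 and Kcnv2. In 14 of these 22 the cut-rate track also held no bases of FDR under 0.05 at a promoter in either replicate. In 3 of them (13.6%) it held such bases in both, beside 3.66% of all genes with no promoter peak. The longer lists made Kcnk7 and Kcna5 accessible. Of these 22 genes, 15 (68.2%) had at least 1 shared distal region, beside 31.4% of all genes with no promoter peak. These shares were not read by locus length. Some of the regions lay nearest to a start of another gene, as those of Kcne1 did to Smim34. Kcnk9, an acid-sensitive leak channel, had no promoter peak and 3 shared distal regions, the tallest with 2.80 in replicate 1 and 1.97 in replicate 2, in an intron 29.1 kb from the gene start.

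Grouped by where the genes are best known, the calls differed in number. Of 33 members known from cortical neurons 29 were accessible, 3 had a peak in replicate 1 alone (Kcna2, Kcnc2 and Kcnk4) and 1 had none (Kcnk9). Of 6 known from glia or vessels 4 were accessible (Kcnj2, Kcnj10, Kcnj16 and Kcnk13), and Kcnj8 of pericytes and Kcna3 of microglia had a peak in replicate 1 alone. Kcnj2 was listed for endothelium and Kcnk13 for microglia. None of the 3 markers read for either cell type had a promoter peak, so these calls do not show from which cells the peaks came. Of 14 known mainly from outside the cortex 3 were accessible, Kcnu1, Kcna7 and Kcnk5. Kcnk5 had 1.20 in replicate 1 and 0.587 in replicate 2, and Kcna7, a muscle channel, 0.993 in replicate 1 and 0.513 in replicate 2. These lists were chosen with earlier results of these data known, and the counts are a description beside the 56.2% of all genes.

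Channel partner genes and the related Hcn pacemaker channels were accessible in 11 of 17 cases (64.7%), beside 56.2% of all genes. Adam22, the receptor of Lgi1, had 4.74 in replicate 1 and 2.82 in replicate 2. Dpp6, Dpp10, Abcc8, Lgi1, Lrrc52, Cntnap2, Pex5l, Hcn2 and Hcn4 were accessible as well. Amigo1, Lrrc26 and Hcn3 had a peak in replicate 1 alone, and Abcc9, Lrrc38 and Lrrc55 had none.

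CpG content, which the choice of members did not use, was lower at Kcn genes. The ratio of observed to expected CpG in the 500 bp on both sides of the gene start had a median of 0.492 over members and 0.552 over all protein-coding genes. A ratio of 0.6 or more was found at 36 members (38.3%), beside 45.9%. Of these 36, 29 were accessible (80.6%), beside 88.6% of all genes with such a ratio. Below 0.6, 27 of 58 members were accessible (46.6%), beside 28.6% of all genes below it. The ratio was read at the gene start alone, while the call took in any TSS, so some of the open promoters lay elsewhere. Kcnma1, with a ratio of 0.0783 at its start, was open only at the promoter whose joined starts begin 9.63 kb into the gene. Kcnj9 with 0.272 and Kcnip3 with 0.249 were among the accessible members of low ratio. In contrast, Kcnk9 and Kcnc4 were the 2 members with no promoter peak and a ratio of 0.6 or more.

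Shared distal regions were more frequent in member loci than in the background. A locus took in the gene and 20 kb of flanking sequence at either end. The loci of the 94 members held 202 distinct shared distal regions, and 67 members (71.3%) had at least 1, beside 46.7% of all protein-coding genes. Member loci were longer, with a median of 70.8 kb against 57.4 kb over all genes, so the shares were also read by locus length. Under 50 kb, 12 of 23 members had a region (52.2%), beside 29% of all genes of that length. From 50 to 100 kb it was 27 of 41 members (65.9%), beside 47.9%. At 100 kb or more it was 28 of 30 (93.3%), beside 76.3%, and the 2 long loci with none were those of Kcnj3 and Kcns3. Per 100 kb of locus, members held 1.51 regions and all genes 0.983 under 50 kb. From 50 to 100 kb members held 2.19 and all genes 1.21, and at 100 kb or more members held 1.21 and all genes 1.10. The gap between members and background was therefore narrower in the long loci. With 5 or more regions there were 11 members (11.7%), beside 3.52%, and with 10 or more 2 members (2.13%), beside 0.529%.

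**Figure D3:**
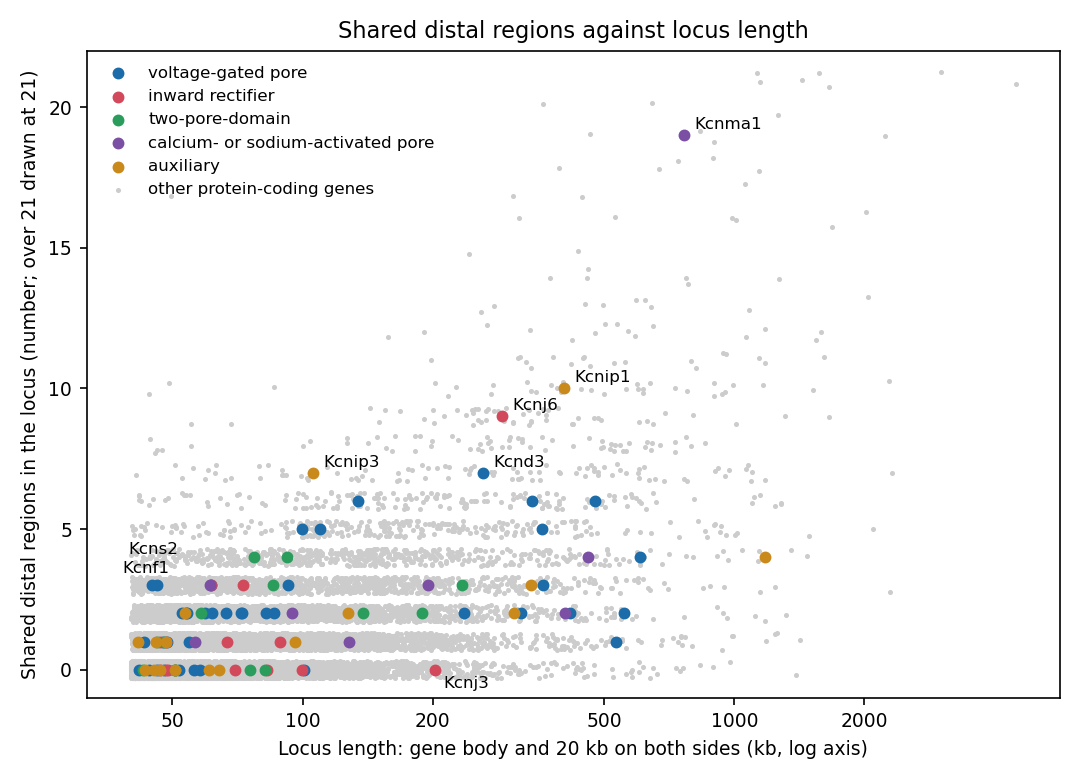
Number of shared distal regions in the locus (y axis, genes with over 21 drawn at 21) against locus length in kb (x axis, log), with coloured points for potassium channel genes by class and grey points, spread slightly on the y axis, for other protein-coding genes. Kcnma1 has 19 regions and Kcnip1 10, while the long locus of Kcnj3 has none.

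By class, 32 of 40 voltage-gated genes had a shared distal region, 7 of 15 inward rectifiers, 9 of 14 two-pore-domain genes, 8 of 8 calcium- or sodium-activated genes and 11 of 17 auxiliary genes. Over all protein-coding genes the share was 46.7%. Per 100 kb of locus there were 1.45 regions in voltage-gated genes, 1.44 in inward rectifiers, 1.73 in two-pore-domain genes, 1.62 in calcium- or sodium-activated genes and 1.11 in auxiliary genes, beside 1.12 over all genes. Introns held 121 of the 202 regions, exons 9, upstream flanks 30 and downstream flanks 42, and 11 lay inside another protein-coding gene. For 101 of the 202 the nearest annotated TSS was that of the member. The median height, as the geometric mean of both replicates, was 1.01 in member loci and 0.856 over all 23895 shared distal regions. In member loci 46.5% were taller in replicate 2, beside 38.2% of all shared distal regions, whereas 5 of 56 accessible member promoters were not lower there. Footprints of both replicates overlapped in 181 of the 202. No region had most of its 25-base words in several genomic copies.

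Kcnma1 held the most, 19 regions in a locus of 765 kb, all in introns and between 6.01 and 613.2 kb from the gene start. Their heights ran from 0.596 to 2.25 in replicate 1, with a median of 0.803, and from 0.540 to 2.05 in replicate 2, with a median of 0.898. The region nearest the gene start was the tallest, with 2.25 in replicate 1 and 1.63 in replicate 2, and is the one printed above. Next came a region 128.7 kb into the gene with 1.75 in replicate 1 and 2.05 in replicate 2. The 2 tallest thus changed order between the replicates. In 12 of 19 the peak was taller in replicate 2. With the longer lists the locus held 28.

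**Figure D4:**
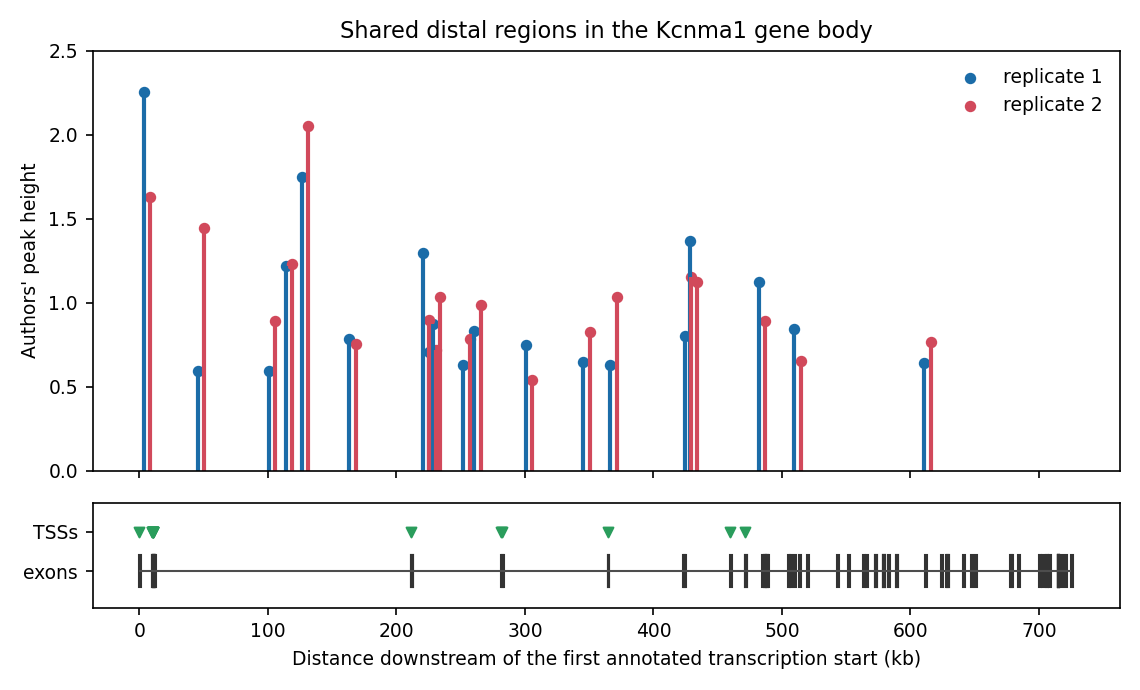
Heights of the 19 shared distal regions of Kcnma1 (y axis, the authors' peak height, replicate 1 in blue and replicate 2 in red, drawn slightly apart) against distance from the first annotated start in kb (x axis), over annotated exons (black) and start sites (green triangles). The tallest regions lie at 6.01 and 128.7 kb, and the region farthest from the start lies at 613.2 kb.

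Kcnip1 followed with 10 regions. The tallest, in an intron, had 1.73 in replicate 1 and 2.15 in replicate 2, and it was the only one of the 10 that was taller in replicate 2. Kcnj6 had 9, with heights between 0.643 and 2.07 in replicate 1 and between 0.655 and 1.29 in replicate 2. Kcnip3 and Kcnd3, a calcium-binding partner and its pore subunit partner, had 7 each. Kcnd3, which carries A-type current, had its tallest region in the downstream flank with 2.13 in replicate 1 and 2.83 in replicate 2, and that region was nearer to a start of Ddx20, at 6.15 kb. Kcnb2 and Kcnq3 had 6 each, and Kcng2 and Kcnh1 had 5 each. With the longer lists Kcnj6 held 21 and Kcnip1 19, which turned their order, and Kcnd3 and Kcnq3 held 13 each and Kcnh1 11. All 5 Kcnh1 regions were taller in replicate 2, while the Kcnh1 promoter was lower there. Among members with 3 or more regions high densities per 100 kb were found at Kcnf1 (6.70), Kcnip3 (6.63), Kcns2 (6.51), Kcnk3 (5.19) and Kcnn1 (4.90). Kcnf1 and Kcns2, which encode silent subunits, are short genes, and their 3 regions each lay in the flanks.

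The tallest distal region in any member locus lay 2.48 kb upstream of Kcnn1, with 8.59 in replicate 1 and 6.28 in replicate 2. It was taller than the open Kcnn1 promoter, 6.2 kb into the gene, in both replicates. It lay 2.28 kb from the nearest annotated start, just outside the limit of 2000 bp, and its CpG ratio of 0.754 was the highest of the 10 tallest. The Kcna6 region, 38.3 kb from the gene start on the downstream side, had 4.56 in replicate 1 and 2.67 in replicate 2. A region in the downstream flank of Kcnj14, a gene with no promoter peak, had 4.16 in replicate 1 and 2.05 in replicate 2, and lay inside Lmtk3. An intron of Kcnab2 held one with 3.68 in replicate 1 and 2.07 in replicate 2. Kcnn3 had 2 of the 10 tallest, one in an intron with 3.22 in replicate 1 and 2.15 in replicate 2 and one downstream with 3.05 in replicate 1 and 2.05 in replicate 2. The Kcnd3 region above and an intron region of Kcnq3, with 2.48 in replicate 1 and 2.71 in replicate 2, were also among the 10 tallest.

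Motif matches in the central 300 bp of the regions, on both strands, were close to the background for CTCF, the insulator-binding factor. A CTCF consensus match lay in 26 of 202 member regions (12.9%), beside 12.4% of all shared distal regions, in the loci of 19 members. All 27 CTCF matches found within member regions overlapped footprints of both replicates, beside 91.4% of matches in all shared distal regions. Of these, 6 from tall regions are given 5′ to 3′ on the strand of the match (GRCm38.p6), with the match in capitals and 14 bases on both sides.
Kcnj14 (chr7:45801568-45801607, minus strand): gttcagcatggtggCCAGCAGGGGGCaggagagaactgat
Kcnip4 (chr5:49090309-49090348, plus strand): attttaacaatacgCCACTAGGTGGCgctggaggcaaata
Kcng1 (chr2:168250424-168250463, plus strand): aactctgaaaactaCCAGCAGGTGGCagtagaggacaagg
Kcnk9 (chr15:72549557-72549596, plus strand): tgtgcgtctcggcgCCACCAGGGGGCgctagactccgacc
Kcnq3 (chr15:66034067-66034106, plus strand): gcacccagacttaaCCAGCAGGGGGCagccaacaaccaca
Kcnn1 (chr8:70844696-70844735, plus strand): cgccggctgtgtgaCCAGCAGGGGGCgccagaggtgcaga
Kcnip1 had a CTCF match in 4 of its 10 regions and Kcnma1 in 0 of its 19. Only exact matches to the 12-base consensus were counted. The printed footprints of the Kcnma1 and Kcna6 regions hold stretches close to that consensus, which were not counted.

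The AP-1 motif TGANTCA, bound by Fos and Jun dimers, lay in 49 of the 202 central windows (24.3%), beside 18.5% of all. In promoters, 500 bp on both sides of the gene start, it lay in 14.9% of members, beside 18.9% of all genes. In Kcnma1 it lay in 9 of 19 distal windows. Of the AP-1 matches within member regions 13.2% overlapped footprints of both replicates, beside 13.0% of those in all shared distal regions. The E-box CAGNTG, bound by neuronal basic helix-loop-helix factors, lay in 148 windows (73.3%), beside 65.9%, and 18.4% of its matches overlapped footprints of both replicates, beside 16.7%. A MEF2 consensus match lay in 4 windows (1.98%), beside 4.90%. A match to RE1, the element bound by the neuronal gene repressor REST, was searched as the parts TTCAGCACC and GGACAGNGC at a distance of 2 bases with up to 3 mismatches in all. It lay in 0 of 202 windows, beside 0.234% of all. Within 500 bp of any TSS it was found at 3 members (3.19%), Kcnc2, Kcnmb1 and Kcnt1, beside 1.88% of all genes, and no peak or footprint of either replicate covered these matches. A motif match is a description of the letters and does not show that the factor was bound.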

How the data were processed

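Open chromatin was measured by DNase-seq in 2 libraries of 1 group. The authors deposited, per the file headers on mm10, 2 peak lists, footprints and an FDR track for each. Peak height is the authors' signal, whose scaling no source used states. The deposited FDR values (q-values) list stretches under 0.05, and the footprint column held 1 constant, so footprints served as positions. Depth, aligner and peak caller were not given in the sources, so no interval is stated. The files do not separate the parental alleles. The shorter, stricter lists were used. Overlapping peaks within a list were joined (1089 intervals fewer in replicate 1, 522 in replicate 2), and peaks of both replicates overlapping by 1 bp or more gave 44745 shared regions, 23895 of them distal. GENCODE M21 genes and GRCm38.p6 sequence were used. Calls were made in Python 3.11.15 with pandas 2.3.3 and numpy 2.4.6 and were tested on simulated peaks.

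Named genes were, in each class, the 4 tallest accessible promoters, then the members with a peak in 1 replicate or none, the 10 with most distal regions, the 6 densest among those with 3 or more, and the 10 tallest distal regions. Others named with values were chosen after their values were seen. The members and lists were chosen with earlier results of these data known. With 1 group and no contrast, values are described beside all protein-coding genes without a test. A few genes that this rule or the lists named are not reported here.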

Additional observations from a re-analysis of the deposited data

How the results depend on the processing

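The share of accessible members ran from 43.6% beside 50.3% of all genes (peaks at or above the median height, 41 members) to 74.5% beside 61.6% (without replicate 2, 70 members). It lay below the share of all genes in that first setting, at the gene start alone (48.9% beside 50.4%) and within 250 bp (53.2% beside 54.5%), and above it in the others. The share with a shared distal region ran from 48.9% beside 22.5% (gene body alone, 46 members) to 88.3% beside 65.6% (50 kb flanks, 83 members), and was above that of all genes in every setting tried. The number of distinct shared distal regions, 202, was 370 with the longer peak lists, 111 with peaks at or above the median height and 130 in the gene body alone, and it ran from 278 to 404 where 1 replicate was left out, since peaks then needed no partner. The accessible two-pore-domain genes, 6 of 14, were 11 with the longer lists and ran from 7 to 10 where 1 replicate was left out. The counts of the other classes stayed within 1.5 times. Of 30 recounts of single genes 8 moved by more. The requirement of overlapping promoter peaks and the removal of peaks at another coding gene were chosen after seeing the data. No paired analysis was possible because there was 1 group. Depth is unknown, so a gene with no listed peak is not shown to be closed.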
